A study of Mus musculus with 3 samples.

Results

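This account covers 10 genes of inflammatory cytokine sensing and of the cell death machinery tied to it, measured in cultured mouse CD8+ T cells. They are Il1a, the IL-1 receptor genes Il1rap and Il1r2, the IL-18 receptor genes Il18r1 and Il18rap, the IL-12 receptor genes Il12rb1 and Il12rb2, the inflammatory caspase genes Casp1 and Casp4, and Gsdmd. They were chosen by symbol, with their ratios in these samples already known, and all 10 were found among 17121 genes in the table. The CD8+ T cells came from spleen and lymph node of mice whose genotype is given only as wild type, and were cultured for 3 days with anti-CD3/28 antibodies (1 µg/ml), which engage the T cell receptor and a co-stimulatory receptor. The aged TRM sample came from mice of 18 months and the young TRM sample from mice of 6 weeks, and both cultures were given TGF-beta (5 ng/ml) together with IL-15 (20 ng/ml), which are used to favour features of tissue-resident memory T cells (TRM). The young TCR sample, likewise from 6-week-old mice, had the antibodies alone. Each group was 1 sample, and neither the strain nor the number of mice behind a sample is given. A culture of aged cells with the antibodies alone was not analysed here, so an effect of age without the added cytokines was not measured.

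The IL-1 family signals through paired receptor chains: a binding chain holds the cytokine and an accessory chain is then recruited, and together they engage the adaptor MyD88. IL-12 acts through another class of paired chains that engage the kinases TYK2 and JAK2 and the transcription factor STAT4, and in CD8+ T cells IL-12 and IL-18 given together are known to elicit interferon gamma without contact with antigen. Inflammatory caspases are activated on cytosolic danger platforms called inflammasomes, mature some IL-1 family cytokines and cut gasdermin D, whose freed part forms pores in the plasma membrane. IL-1 alpha differs from IL-1 beta and IL-18 in that its precursor is already active.

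The sample labels were checked first. Cd8a, a chain of the CD8 co-receptor, had 1632 CPM in aged TRM, 1822 CPM in young TRM and 747 CPM in young TCR, while Cd4 had 11.6, 12.4 and 10.5 CPM in the same order of samples. The CD8 T cell list summed to 3984, 4306 and 2794 CPM, and the list of CD4 and regulatory T cell genes to 1803, 1406 and 1165 CPM. Most of that sum was Il2ra, the IL-2 receptor alpha chain gene that activated CD8+ T cells also express, at 1518, 1117 and 868 CPM, followed by Ctla4 at 255, 234 and 266 CPM. Foxp3, which encodes the defining transcription factor of regulatory T cells, had 3.71 CPM in aged TRM, 33.6 CPM in young TRM and 1.95 CPM in young TCR. Zbtb7b, which encodes the CD4 lineage factor ThPOK, had 14.3, 8.03 and 18.1 CPM. CPM is a gene's read count scaled to a common library size, with libraries adjusted by the trimmed-mean (TMM) method. The samples held between 36021887 and 40385477 reads, from 2 numbered columns each, which are treated as repeat measurements of 1 sample because the labels do not say what they are. With 1 sample a group, no difference could be tested against variation between mice or cultures. Intervals are 95% exact counting intervals and cover counting error only. The words rose and fell are kept for genes where the log2 ratio of CPM, with a pseudocount of 1, was at least 1 in size and the counting interval of its fold excluded 1. Folds are printed without the pseudocount. By this rule Foxp3 rose in young TRM against young TCR (17.2-fold, 13.7 to 21.9) and fell in aged TRM against young TRM (9.04-fold lower, 7.62 to 10.8), in all 4 pairings of columns. Zbtb7b fell in young TRM against young TCR (log2 ratio -1.08), not in all pairings.

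In young TRM against young TCR, Il1a, Il18r1 and Il18rap rose and Casp1 and Casp4 fell, that is 3 and 2 of the 10 genes, where 7.78% of all 11588 tested genes were called, 4.18% rising and 3.60% falling. In aged TRM against young TRM, Il1a, Casp1 and Casp4 rose and none of the 10 fell, where 3.40% of 11575 tested genes were called, 2.25% rising and 1.15% falling. Each of these calls also passed 2-fold in all 4 pairings of columns, as did 6.23% of all tested genes in the first comparison (3.44% rising, 2.79% falling) and 2.41% in the second (1.59% rising, 0.821% falling). The genes were picked with these ratios in view, so nothing is read from the counts beyond which genes they name. The median log2 ratio of the 10 genes was 0.16 in the first comparison and -0.04 in the second, beside 0.02 and -0.01 over all genes tested. Both comparisons use the young TRM library, so a high or low value there enters both. In bulk RNA, fewer cells of a kind and less RNA per cell cannot be told apart.

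**Figure D1:**
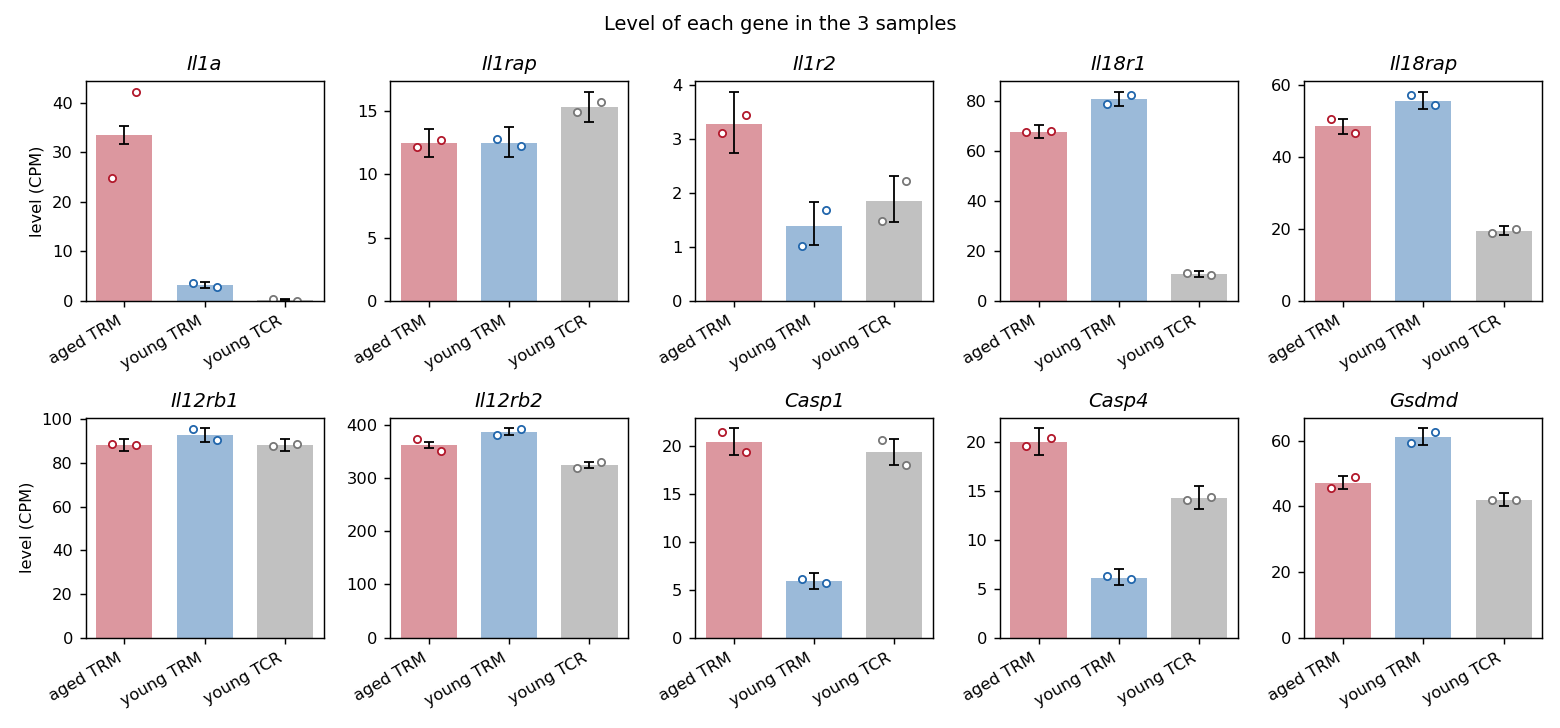
Level of each of the 10 genes in CPM (vertical axes, each starting at 0) in aged TRM, young TRM and young TCR. Bars are the summed sample, error bars its 95% counting interval and open circles the 2 numbered columns, and Casp1 and Casp4 are lowest in young TRM while Il18r1 and Il18rap are lowest in young TCR.

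The stretches of DNA before annotated starts of the 5 genes that were called are shown, because Il18r1 with Il18rap and Casp1 with Casp4 moved together and Il1a moved most in the age comparison. They are taken from RefSeq promoter windows of assembly GRCm38.p6, in which 8 of the 10 genes had at least 1 window, with bases of annotated exons left out. Il18r1 has 3 annotated starts. Its first is shown, and also its most downstream, which was picked after the search because its window alone of the 3 held a match. Casp4 has 2 starts, of which the first is shown. The Casp4 stretch and that of the downstream Il18r1 start end short of the start, where exon bases were taken off. The letters searched on both strands were TTCNNNGAA, the STAT site, found in 8.29% of 32817 windows of 300 bases, GAAANNGAA, the core of the interferon-stimulated response element, in 8.55%, TGANTCA, the AP-1 site, in 7.81%, and GTCTAGAC, a SMAD palindrome, in 0.213%. Capitals mark matches in the sequences below, each 5′ to 3′ on the strand of its gene.
Il18r1, first start, chr1:40465419-40465551, plus strand: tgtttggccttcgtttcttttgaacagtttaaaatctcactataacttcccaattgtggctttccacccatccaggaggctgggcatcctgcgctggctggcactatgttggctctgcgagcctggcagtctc
Il18r1, downstream start, chr1:40465811-40465969, plus strand: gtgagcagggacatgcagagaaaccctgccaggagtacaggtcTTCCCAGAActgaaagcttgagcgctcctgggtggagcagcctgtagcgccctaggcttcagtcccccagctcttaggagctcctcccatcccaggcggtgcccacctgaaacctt
Il18rap, chr1:40515112-40515361, plus strand: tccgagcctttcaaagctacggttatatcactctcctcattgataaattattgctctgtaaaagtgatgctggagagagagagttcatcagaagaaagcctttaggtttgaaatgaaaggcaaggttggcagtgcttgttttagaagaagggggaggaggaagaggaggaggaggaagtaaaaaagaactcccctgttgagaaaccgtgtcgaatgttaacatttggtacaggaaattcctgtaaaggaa
Casp1, chr9:5298267-5298516, plus strand: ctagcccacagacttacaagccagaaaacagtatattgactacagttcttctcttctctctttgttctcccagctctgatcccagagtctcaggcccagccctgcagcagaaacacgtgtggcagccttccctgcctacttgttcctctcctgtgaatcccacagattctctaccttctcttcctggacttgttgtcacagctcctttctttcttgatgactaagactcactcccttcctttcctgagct
Casp4, chr9:5308599-5308827, plus strand: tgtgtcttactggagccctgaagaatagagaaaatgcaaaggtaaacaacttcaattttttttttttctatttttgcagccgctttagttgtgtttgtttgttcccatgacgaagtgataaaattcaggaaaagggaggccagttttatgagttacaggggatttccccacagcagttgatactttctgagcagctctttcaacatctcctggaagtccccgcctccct
Il1a, chr2:129309973-129310222, minus strand: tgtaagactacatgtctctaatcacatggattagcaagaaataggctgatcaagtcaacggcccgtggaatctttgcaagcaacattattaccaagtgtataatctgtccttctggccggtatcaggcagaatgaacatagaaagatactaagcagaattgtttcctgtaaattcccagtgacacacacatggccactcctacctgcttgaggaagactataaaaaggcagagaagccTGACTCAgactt
The Il1a window holds the AP-1 letters 12 bases before the start used for it, position 129309972. On this minus strand the annotated extent of Il1a begins farther upstream, at 129310186. The match and other bases of the stretch shown therefore lie inside the annotated gene. The window of the downstream Il18r1 start held the STAT letters at 152 and at 219 bases before the start, the farther match lying in an annotated exon and so not shown. The windows of the other 2 Il18r1 starts and those of Il18rap, Casp1 and Casp4 held none of the letters searched, which says only that they are not in these bases. Among the genes that were not called, Il1r2 and Il12rb2 each held the STAT letters before the start used. The Il1rap window held the core of the interferon-stimulated response element 20 bases after the start used. The starts used for these genes, like that of Il1a, lie inside the annotated extents of the genes.

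Il1a (gene ID 16175, chromosome 2, positions 129299609 to 129310186 of GRCm38.p6) encodes IL-1 alpha, an alarm cytokine that is active when released from damaged or activated cells. It had 33.6 CPM in aged TRM (31.8 to 35.4), 3.18 CPM in young TRM (2.62 to 3.83) and 0.247 CPM in young TCR (0.118 to 0.454). The reads behind these levels were 1364, 112 and 10. The samples did not overlap in any column, but the columns of aged TRM stood at 24.8 and 42.3 CPM, far wider apart than the counting interval, and those of young TCR held 9 reads and 1 read. Il1a was 12.9-fold higher with the added cytokines, in young TRM over young TCR (6.75 to 27.6), and 10.6-fold higher in aged TRM than in young TRM (8.70 to 12.9). Over the 4 pairings of columns its log2 ratio ran from 1.42 to 2.12 in the first comparison and from 2.50 to 3.48 in the second. By log2 ratio it ranked 151 from the top of 11588 genes in the first comparison and 8 from the top of 11575 in the second. With a pseudocount of 5, the log2 ratio of the first comparison was 0.64 and no longer past the threshold.

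Il1rap and Il1r2 are the IL-1 receptor chains among the 10 genes, and neither was called in either comparison. Il1rap (gene ID 16180, chromosome 16, positions 26581509 to 26730128) encodes the accessory chain shared by the receptors for IL-1, IL-33 and IL-36. Its level was 12.4 CPM in aged TRM, 12.5 CPM in young TRM and 15.3 CPM in young TCR. The first and second of these overlapped in their counting intervals, and young TCR lay slightly above both. Il1r2 (gene ID 16178, chromosome 1, positions 40084692 to 40125230) encodes a decoy receptor that binds IL-1 without passing on a signal. Its level was 3.27 CPM in aged TRM (2.74 to 3.88), 1.39 CPM in young TRM (1.03 to 1.84) and 1.85 CPM in young TCR (1.46 to 2.32). The columns of young TRM, at 1.02 and 1.69 CPM, overlapped those of young TCR, at 1.48 and 2.23 CPM, while those of aged TRM, at 3.11 and 3.44 CPM, lay above both. The fold of aged TRM over young TRM was 2.35 (1.68 to 3.34), a log2 ratio of 0.84 with the pseudocount, and this passed the threshold with the first column alone (1.03). Il1r1, which encodes the signalling IL-1 receptor, had 22 reads in aged TRM, 5 in young TRM and 17 in young TCR, all under 1 CPM. On the per-length scale of the deposited TPM, Il1rap stood at 6.09, 5.92 and 7.14 TPM and Il1r2 at 4.57, 2.04 and 2.67 TPM in aged TRM, young TRM and young TCR.

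Both chains of the IL-18 receptor rose in young TRM. Il18r1 (gene ID 16182, chromosome 1, positions 40465552 to 40500854) encodes the binding chain. Its columns held 67.5 and 67.8 CPM in aged TRM, 78.6 and 82.5 CPM in young TRM, and 11.1 and 10.4 CPM in young TCR. Il18rap (gene ID 16174, chromosome 1, positions 40515362 to 40551707) encodes the accessory chain that signalling requires. Its columns held 50.4 and 46.5 CPM in aged TRM, 57.3 and 54.3 CPM in young TRM, and 19.0 and 20.1 CPM in young TCR. For both genes the samples with added cytokines lay above young TCR in every column, and aged TRM lay a little below young TRM. The fold of young TRM over young TCR was 7.52 for Il18r1 (6.80 to 8.34) and 2.85 for Il18rap (2.62 to 3.10). In aged TRM against young TRM the folds were 0.838 (0.795 to 0.883) and 0.871 (0.818 to 0.928), which were not called. In TPM, the level of Il18r1 was 1.64 times that of Il18rap in aged TRM, 1.65 times in young TRM and 0.677 times in young TCR. The binding chain was thus the more abundant transcript in both TRM samples and the less abundant in young TCR, in each column.

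The other genes of the same cluster were not called. Il1r2, Il1r1, Il1rl2, Il1rl1, Il18r1 and Il18rap lie in that order on chromosome 1, and Il18r1 starts 133 bases after the end of Il1rl1. Il1rl1, which encodes the IL-33 receptor chain ST2, had 9.03 CPM in aged TRM, 4.12 CPM in young TRM and 2.54 CPM in young TCR. Its log2 ratios of 0.53 in young TRM against young TCR and 0.97 in aged TRM against young TRM were not called, though the ratio of aged TRM to young TRM was 1.01 with libraries scaled by totals only, 1.05 with a pseudocount of 0.5 and 1.18 with the second column alone. Il1rl2, an IL-36 receptor chain, had 1.38, 1.25 and 1.68 CPM in aged TRM, young TRM and young TCR. Within the cluster, only Il18r1 and Il18rap were called in young TRM against young TCR, and none in aged TRM against young TRM, of 5 tested. Over the wider list of IL-1 family receptor chains, 2 of 7 tested genes rose and none fell in the first comparison, and none was called in the second, with medians of -0.25 and -0.00. Whether the genes differ from each other in their response was not tested.

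**Figure D2:**
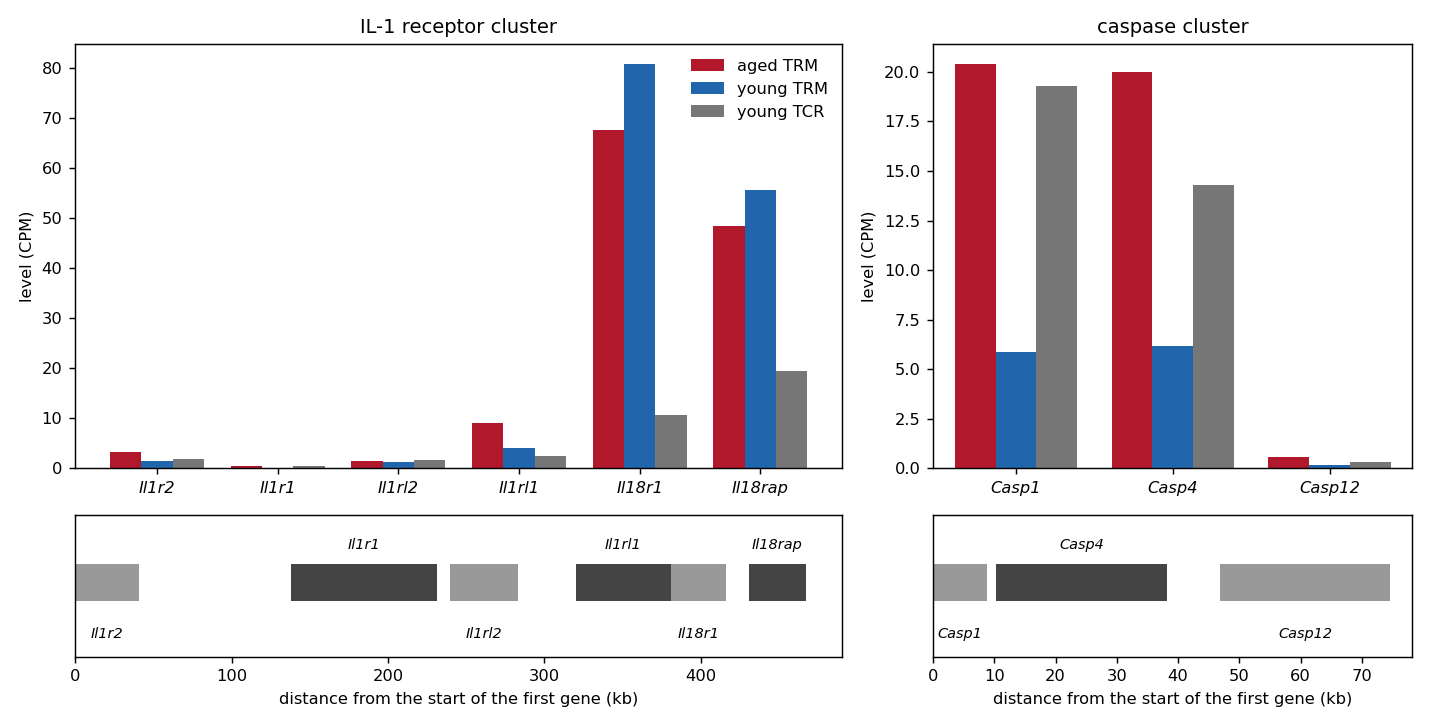
Levels in CPM (upper panels, linear axes from 0) of neighbouring genes in aged TRM, young TRM and young TCR, with gene extents as distance in kb from the start of the first gene (lower panels). In the receptor cluster Il18r1 and Il18rap are lowest in young TCR, and in the caspase cluster Casp1 and Casp4 share a low value in young TRM while Casp12 is under 1 CPM in all 3 samples.

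Some markers of NK and innate lymphoid cells, which also carry the IL-18 receptor, rose with it in young TRM against young TCR. Of 8 such genes 5 rose (Ncr1, Klrb1c, Kit, Fcer1g and Tyrobp) and none fell, where 4.18% of all tested genes rose. With a pseudocount of 5, Ncr1 (0.51), Klrb1c (0.62) and Fcer1g (0.61) were no longer called, nor was Fcer1g with column 1 alone (0.99), and Tyrobp missed the threshold in some pairings of columns (lowest log2 ratio 0.97). Kit kept its call with a pseudocount of 5, which was not tried for Tyrobp. None of the 8 was called in aged TRM against young TRM. In aged TRM the sum of these markers was above that in young TRM, while Il18r1 and Il18rap lay a little below. The summed level of the 8 genes was 132 CPM in aged TRM, 97.8 CPM in young TRM and 35.4 CPM in young TCR. Most of this was Kit, at 110, 78.4 and 29.6 CPM, whereas Ncr1, the defining activating receptor of NK cells, had 1.18, 2.19 and 0.0493 CPM. Foxp3 also rose with the IL-18 receptor genes in young TRM against young TCR. The part of these cells and of regulatory T cells in the levels of Il18r1 and Il18rap was not tested.

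The IL-12 receptor genes were not called in either comparison. Il12rb1 (gene ID 16161, chromosome 8, positions 70808360 to 70823542) encodes the chain shared by the receptors for IL-12 and IL-23. Its columns held 88.4 and 87.9 CPM in aged TRM, 95.5 and 90.3 CPM in young TRM, and 87.8 and 88.5 CPM in young TCR. Il12rb2 (gene ID 16162, chromosome 6, positions 67285986 to 67376293) encodes the chain that recruits STAT4. Its columns held 372 and 351 CPM in aged TRM, 381 and 392 CPM in young TRM, and 319 and 329 CPM in young TCR, so that young TCR was lowest in every column by a small margin. The folds of young TRM over young TCR were 1.05 (1.00 to 1.10) for Il12rb1 and 1.19 (1.17 to 1.22) for Il12rb2, and those of aged TRM over young TRM were 0.952 (0.908 to 0.999) and 0.935 (0.913 to 0.957). None of the 4 tested IL-12 family receptor chains was called. Per length, Il12rb2 stood at 210 TPM in aged TRM, 213 TPM in young TRM and 184 TPM in young TCR, against 51.7, 50.3 and 48.0 TPM for Il12rb1, a ratio between the chains of 4.06, 4.23 and 3.83.

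Casp1 and Casp4, neighbours on chromosome 9, had their lowest level in young TRM. Casp1 (gene ID 12362, positions 5298517 to 5307281) encodes caspase-1, which canonical inflammasomes activate and which matures IL-1 beta and IL-18. Its columns held 21.4 and 19.4 CPM in aged TRM, 6.10 and 5.69 CPM in young TRM, and 20.6 and 18.0 CPM in young TCR. Casp4 (gene ID 12363, positions 5308849 to 5336791) encodes the caspase also called caspase-11 in mice, which responds to bacterial lipopolysaccharide in the cytosol. Its columns held 19.6 and 20.4 CPM in aged TRM, 6.29 and 6.05 CPM in young TRM, and 14.1 and 14.5 CPM in young TCR. For Casp1 the aged TRM and young TCR columns overlapped, and for Casp4 aged TRM lay above young TCR, while young TRM lay below both samples for either gene. Casp1 was 3.29-fold lower in young TRM than in young TCR (2.82 to 3.85) and Casp4 2.32-fold lower (1.98 to 2.72). In aged TRM, Casp1 was 3.47-fold higher than in young TRM (2.98 to 4.06) and Casp4 3.25-fold higher (2.80 to 3.79). All 4 of these calls held in the 4 pairings of columns, and the fall of Casp4 was no longer past the threshold with a pseudocount of 5 (log2 ratio -0.79). Casp1 and Casp4 are paralogs, and the rule for reads matching more than 1 gene was not stated.

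Set directly beside each other, aged TRM and young TCR differ in both age and cytokines. Casp1 had 20.4 CPM in aged TRM and 19.3 CPM in young TCR, a ratio of 1.06 (0.956 to 1.17), and Casp4 had 20.0 and 14.3 CPM, a ratio of 1.40 (1.26 to 1.56). Per length the caspases stood close to each other, with Casp1 at 27.8, 7.76 and 25.6 TPM and Casp4 at 29.7, 8.88 and 20.3 TPM in aged TRM, young TRM and young TCR. Casp12, the next gene of the cluster, had 0.590, 0.142 and 0.296 CPM.

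Gsdmd (gene ID 69146, chromosome 15, positions 75862144 to 75867408), the pore-forming substrate of these caspases, ran the other way in value without being called. Its columns held 45.5 and 49.0 CPM in aged TRM, 59.4 and 62.6 CPM in young TRM, and 42.0 and 42.0 CPM in young TCR. Young TRM was highest in every column. The folds were 1.46 for young TRM over young TCR (1.37 to 1.55) and 0.772 for aged TRM over young TRM (0.726 to 0.822), log2 ratios of 0.53 and -0.37. In TPM, the level of Gsdmd was 1.999 times that of Casp1 in aged TRM, 8.85 times in young TRM and 1.87 times in young TCR.

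**Figure D3:**
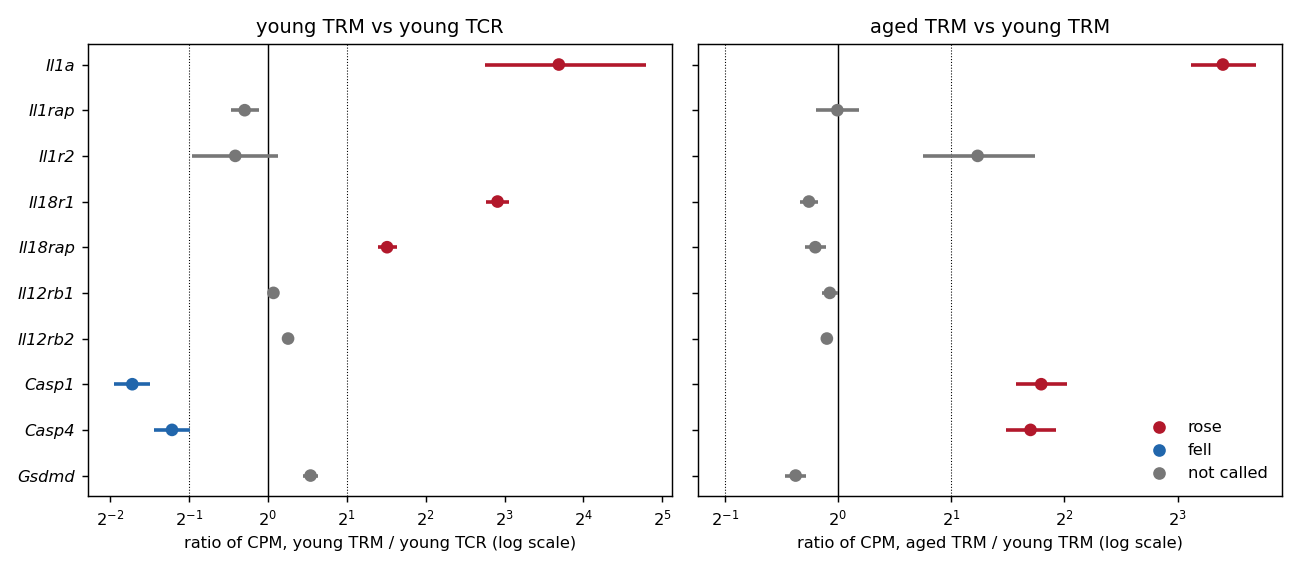
Ratio of CPM (horizontal log axes) for young TRM over young TCR and for aged TRM over young TRM, with 95% counting intervals as lines and the 10 genes as rows. Dotted lines mark 2-fold, and Casp1 and Casp4 lie left of 1 in the first comparison and right of 2-fold in the second, where Il1a lies farthest right.

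Markers of other cells that could carry inflammatory caspases were read in the same libraries. The sum over 8 measured B and plasma cell genes was 24.9 CPM in aged TRM, 17.6 CPM in young TRM and 50 CPM in young TCR. Cd79b made up 11.7, 12.9 and 15.5 CPM of these sums. It was called in neither comparison, with log2 ratios of -0.25 in young TRM against young TCR and -0.12 in aged TRM against young TRM. Of the 7 that were tested 6 fell in young TRM against young TCR, and 3 rose in aged TRM against young TRM, Ms4a1 and Pax5 among them, the same directions as Casp1 and Casp4. Over all tested genes 3.60% fell in the first of these comparisons and 2.25% rose in the second. Ms4a1, which encodes CD20, had 1.89 CPM in aged TRM, 0.426 CPM in young TRM and 7.40 CPM in young TCR, Pax5 had 1.70, 0.199 and 4.17 CPM, and Cd22, called in young TRM against young TCR alone, had 1.35, 0.823 and 6.07 CPM. With a pseudocount of 5 the rises of Ms4a1 (0.35) and Pax5 (0.37) in aged TRM were not called, and neither were the falls of Pax5 (-0.82) and Cd22 (-0.93) in young TRM. The rises of Ms4a1 and Pax5 also missed the threshold in some pairings of columns (lowest log2 ratios 0.57 and 0.82). That of Ms4a1 was not called with the authors' TPM (0.86) or with column 2 alone (0.57) either. The sum over 7 measured dendritic cell genes was 39.3, 20.9 and 39.0 CPM, where Batf3, a transcription factor that activated T cells also express, made up 21.03, 8.32 and 20.5 CPM. Batf3 fell in young TRM against young TCR and rose in aged TRM against young TRM, though neither call held in all pairings of columns. Itgax, which encodes CD11c, also fell in young TRM against young TCR, with 4.21 CPM in aged TRM, 3.55 CPM in young TRM and 8.63 CPM in young TCR, and it too missed the threshold in some pairings. Zbtb46, a transcription factor gene of conventional dendritic cells, had 11.4, 6.75 and 8.21 CPM and was not called, and Clec9a had 0, 3 and 2 reads. Foxp3, given above, was highest in young TRM, where the caspase genes were lowest. The part of B, dendritic and regulatory T cells in the caspase levels was not tested. The macrophage genes Csf1r and Adgre1 were at or near 0. Csf1r had 0.197, 0.227 and 0.222 CPM and Adgre1 2, 0 and 1 reads in aged TRM, young TRM and young TCR. The macrophage list summed to 22.4, 37.4 and 17.4 CPM, and 7 of its 10 genes were under 1 CPM in all samples. Cd68 had 4.45, 5.25 and 9.225 CPM and Itgam 0.664, 2.24 and 2.59 CPM, and neither was called in either comparison. Mpeg1 alone held 15.5, 28.7 and 4.22 CPM. Mpeg1 rose in young TRM against young TCR (6.80-fold, 5.77 to 8.04), in all 4 pairings of columns, and was not called in aged TRM against young TRM. Neutrophil genes summed to 6.54, 8.26 and 5.75 CPM, and mast cell and basophil genes to 12.3, 9.48 and 2.44 CPM. Of the last list Cpa3 and Mcpt8 rose in young TRM against young TCR, and none was called in aged TRM against young TRM. With a pseudocount of 5 the rises of Cpa3 (0.83) and Mcpt8 (0.37) were not called. The part of macrophages, neutrophils, mast cells and basophils in the levels of Il1a and the caspase genes was not tested.

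The other genes of these pathways were read from lists in which the 10 genes also appear. Among 4 tested IL-1 family ligands and antagonists in young TRM against young TCR, Il1a and Il18bp rose and Il18 fell. Il18bp, which encodes a soluble protein that captures IL-18, had 4.55 CPM in aged TRM, 7.55 CPM in young TRM and 2.94 CPM in young TCR. Il18 itself had 9 reads in aged TRM, 3 in young TRM and 57 in young TCR, a fold of 0.0606 in young TRM over young TCR (0.0121 to 0.186). Il18 and Il18bp passed the threshold in some but not all pairings of columns. Il1rn, the IL-1 receptor antagonist gene, was not called, with 60 reads in aged TRM, 40 in young TRM and 3 in young TCR, a fold of 15.3 in young TRM over young TCR (4.89 to 77.5) and a log2 ratio of 0.99 with the pseudocount. Il1b, which encodes IL-1 beta, had 0.763, 0.483 and 0.247 CPM in aged TRM, young TRM and young TCR and was below the 1 CPM needed for a test. In aged TRM against young TRM, Il1a was the only gene to rise of 3 tested. The median log2 ratio of this list was 1.06 in young TRM against young TCR and 0.21 in aged TRM against young TRM.

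Of the IL-12 family ligands Ebi3, a subunit of IL-27 and IL-35, fell in young TRM with 0.823 CPM, against 3.55 CPM in young TCR, and was the only 1 tested there. Il23a, which encodes the p19 subunit of IL-23, rose in aged TRM with 4.53 CPM, against 0.397 CPM in young TRM, an 11.4-fold difference (6.62 to 21.2), and was 1 of 2 tested. The IL-12 subunit genes were barely detected, with 4 reads of Il12a in aged TRM, 1 in young TRM and 21 in young TCR, and 4, 4 and 0 reads of Il12b. For a count of 0 the limit of 3 reads is 0.074 CPM in young TCR.

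Few genes that act below the receptors were called. Among 24 tested genes of MyD88 and NF-kappaB signalling 1 rose in young TRM against young TCR and none fell. It was Nfkbiz, which encodes the IL-1-inducible regulator IkappaB-zeta, at 70.4 CPM in young TRM and 27.3 CPM in young TCR. None of 25 was called in aged TRM against young TRM. The list's median log2 ratio was 0.14 and -0.14 in these comparisons, beside 0.02 and -0.01 over all genes. Myd88 had 48.4 CPM in aged TRM, 55.2 CPM in young TRM and 51.6 CPM in young TCR. Among JAK-STAT genes, Stat4 fell in young TRM against young TCR, and none of 6 was called in aged TRM against young TRM. Stat4, the main signal carrier of the IL-12 receptor, had 197 CPM in aged TRM, 137 CPM in young TRM and 414 CPM in young TCR, a fold of 0.331 in young TRM over young TCR (0.320 to 0.341), while its receptor chains were not called. Tyk2 had 92.6, 94.3 and 90.6 CPM and Jak2 222, 211 and 208 CPM in aged TRM, young TRM and young TCR.

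Among 17 tested genes known to respond to IL-12 and IL-18, 3 rose and 5 fell in young TRM against young TCR, and 6 rose and none fell in aged TRM against young TRM. The median log2 ratio was 0.03 and 0.48. Il18r1, Il18rap and Furin rose in young TRM, where Furin, a protease that matures many precursors, had 211 CPM against 50.2 CPM in young TCR. Ccl5, Csf2, Gzmb and Prf1 were among those that fell, with the chemokine gene Ccl5 at 4.74 CPM in young TRM and 32.3 CPM in young TCR. In the age comparison Ifng, which encodes interferon gamma, had 478 CPM in aged TRM and 82.1 CPM in young TRM. Csf2, which encodes the growth factor GM-CSF, had 18.6 and 3.29 CPM, and the chemokine gene Ccl3 had 131 and 30.6 CPM. The labels name no IL-12 or IL-18 among the additions to these cultures.

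**Figure D4:**
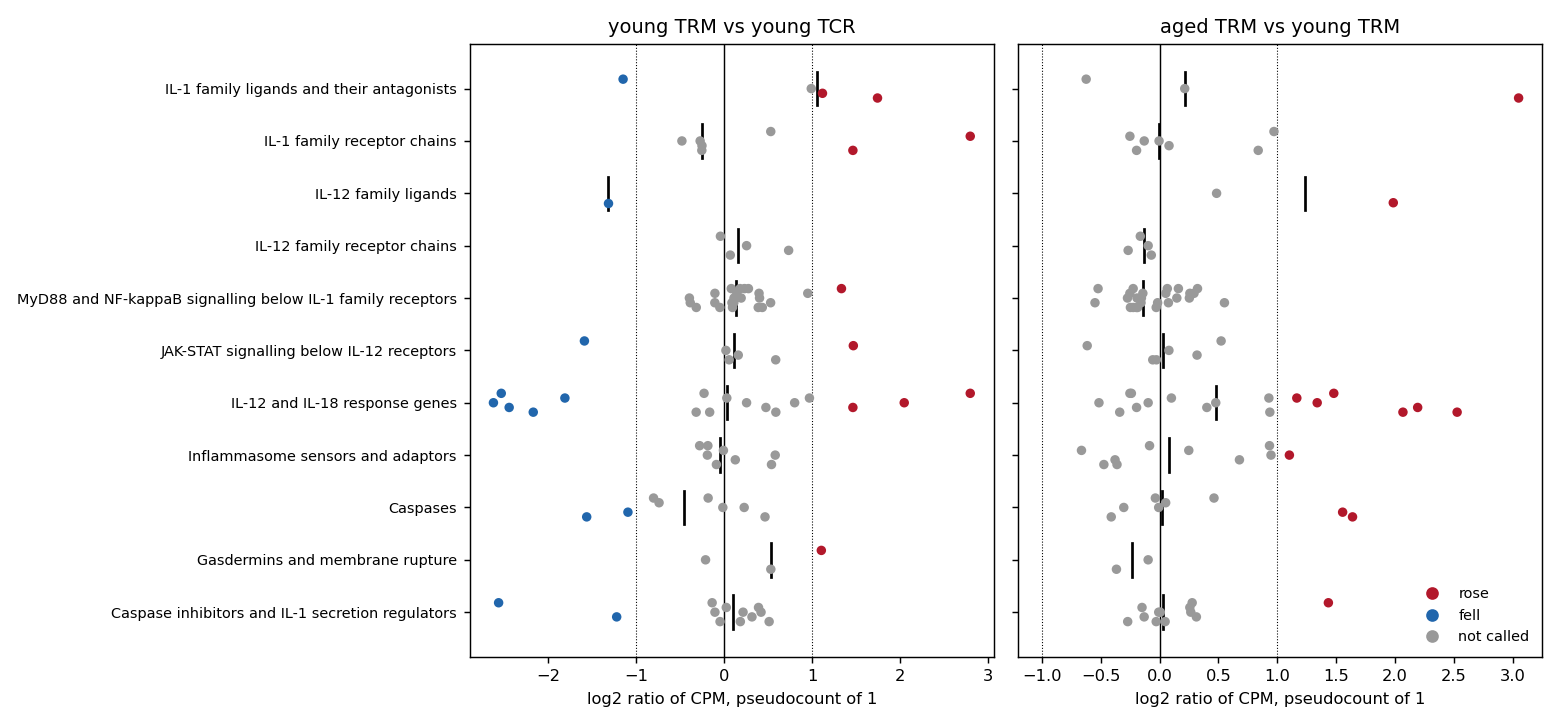
Log2 ratio of CPM with a pseudocount of 1 (horizontal axes) for each tested gene of the 11 lists (rows), in young TRM against young TCR and in aged TRM against young TRM. Points are genes, short vertical bars list medians and dotted lines the 2-fold threshold, and most genes of MyD88 and NF-kappaB signalling lie close to 0 while single genes of the ligand, receptor and caspase rows lie beyond the threshold.

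Inflammasome genes upstream of the caspases were not called in young TRM against young TCR (0 of 8 tested). In aged TRM against young TRM 1 of 10 rose, Naip2, a receptor for bacterial secretion proteins, with 19.1 CPM in aged TRM and 8.37 CPM in young TRM. It has close relatives in the genome, among them Naip5 and Naip6, so its level is uncertain for the same reason as those of Casp1 and Casp4. Naip2 also missed the threshold in some pairings of columns (lowest log2 ratio 0.93). Naip5 (log2 ratio 0.93) and Nlrp6 (0.95) lay just under the threshold in aged TRM against young TRM, and no gene of the list fell. There 3 genes of the list rose with a pseudocount of 0.5, 2 with column 2 alone and 0 with a pseudocount of 5. The list's median log2 ratio was 0.08. Pycard, which encodes the adaptor ASC, had 39.7 CPM in aged TRM, 51.2 CPM in young TRM and 51.5 CPM in young TCR, and the DNA sensor gene Aim2 had 95.8, 80.6 and 73.7 CPM. Nlrp3, the best known inflammasome sensor, had 7, 4 and 7 reads, and Nlrp1b 1.13, 1.96 and 1.04 CPM. Of 8 tested caspase genes, Casp1 and Casp4 were the only ones called in each comparison, and the list's median log2 ratio was -0.46 in young TRM against young TCR and 0.02 in aged TRM against young TRM. Casp8, which starts death receptor signalling, had 154, 155 and 132 CPM in aged TRM, young TRM and young TCR. Ninj1, which encodes a protein that ruptures the membrane after pores form, rose in young TRM with 19.0 CPM, against 8.29 CPM in young TCR, the only call among 3 tested genes of gasdermins and membrane rupture (none of 2 in aged TRM against young TRM), and Gsdme, another gasdermin gene, stood at 0.959, 0.908 and 1.21 CPM.

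Among 12 genes of caspase inhibition and IL-1 release, Serpinb9 and S100a10 fell in young TRM against young TCR and Serpinb9 rose in aged TRM against young TRM. Serpinb9, which encodes an inhibitor of granzyme B and caspase-1, had 149 CPM in aged TRM, 54.5 CPM in young TRM and 327 CPM in young TCR. The calpain genes Capn1, Capn2 and Capns1, whose protease cuts the IL-1 alpha precursor, were not called. Capn1 had 168 CPM in aged TRM, 187 CPM in young TRM and 142 CPM in young TCR.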

How the data were processed

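RNA was measured in 3 samples of CD8+ T cells, 1 per group. The authors deposited estimated counts per gene (an expected count need not be whole) and TPM values, per the file headers. Bowtie and the build GRCm38 (mm10) are named, without a version or a step, in the submitters' processing notes. The counting rule, annotation and strandedness were not stated. A further 24 value columns (FPKM, normalized counts and averages) were not used. Each sample had 2 numbered columns, which were rounded and summed. Columns of the same sample varied more than counting allows: over genes with 50 reads or more, their variance was 2.31 to 3.04 times the counting variance.

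Libraries were scaled by TMM with edgeR 4.0.16 in R 4.3.3. Ratios and Clopper-Pearson intervals came from scipy 1.17.1 under Python 3.11.15, with pandas 2.3.3 and numpy 2.4.6. Testing required 1 CPM in either library of a comparison. No p-value was computed, since each group is 1 sample. Positions are from RefSeq GRCm38.p6, matched by gene ID for 17071 of 17121 genes. The members, the 11 pathway lists and the 8 marker lists were chosen with earlier results of these data known. Named were the 10 genes, up to 4 called genes per list and comparison, and a set of ligands, receptors and signalling genes. Other genes (Il1rl2, Furin, Gzmb, Prf1, Naip5, Naip6, Nlrp6, Casp12, Clec9a, Zbtb46, Il2ra, Ctla4, Cd4, Cd79b, Csf1r, Adgre1, Cd68, Itgam, Tyrobp and the calpain genes) were named after their values were seen. Protein sequences were not analysed here, and some called genes of the lists are not reported here. Alternatives were scaling by totals or by DESeq2 1.42.0 size factors, pseudocounts of 0.5 and 5, a minimum of 10 CPM or none, the authors' TPM, and either column alone.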

Additional observations from a re-analysis of the deposited data

How the results depend on the processing

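Of 177 recomputed values of the 10 genes, 173 kept their direction and their side of the threshold. The exceptions were Il1a (0.64) and Casp4 (-0.79) in young TRM against young TCR with a pseudocount of 5, Il1r2 (1.03) in aged TRM against young TRM with column 1 alone, and Il12rb1, whose log2 ratio of -0.07 in aged TRM against young TRM became 0.04 with the authors' TPM. A pseudocount of 5 left 3 of 5 of these genes called in young TRM against young TCR. Over the whole table it left 486 of 901 genes called in young TRM against young TCR and 149 of 393 in aged TRM against young TRM, and a minimum of 10 CPM left 583 and 214, since both shrink or drop weakly expressed genes. That minimum left Il1a and Il1r2 untested in young TRM against young TCR and Il1r2 in aged TRM against young TRM.

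For the other named genes 456 of 496 values stayed, 29 lost their call, 3 gained it and 8 changed sign from values near 0. The sign changes were Jak2 (-0.03 with totals only, -0.05 with column 2 alone) and Pycard (0.11 with column 2 alone) in young TRM against young TCR, and Tyk2 (0.01 with totals only, 0.02 with the authors' TPM) and Casp8 (0.03 with totals only, 0.04 with the authors' TPM, 0.02 with column 2 alone) in aged TRM against young TRM. Calls lost with a pseudocount of 5 included Il18 (-0.33), Il18bp (0.66), Ebi3 (-0.55), Ninj1 (0.85), Il23a (0.82), Naip2 (0.85) and Batf3 (-0.94 and 0.97). Batf3 also lost its calls with column 1 alone (-0.92 and 0.83), and Il18 with column 2 alone (-0.99). The cause of these changes was not tested. No paired analysis was possible because each group is 1 sample. Depth limits Il1a in young TCR, with 10 reads, and the ligand genes under 1 CPM.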
